A study of Mus musculus with 12 samples.

Results

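Globin and erythroid genes were followed across 12 mouse expression arrays. The 8 genes were Hba-a1, Hbb-b1, Hbb-b2, Hbb-bh1, Hbb-bh2, Ahsp, Alas2 and Slc4a1, and they were taken as the spots whose gene name or Entrez symbol equals one of these names. They were carried by 28 spots, 20 for Hba-a1, 2 for Hbb-bh1 and 1 for each other gene, out of 26228 named genes on 41011 spots. The RNA came from female B6C3F1/Nctr mice, and acrylamide, a small reactive amide, had been given at 0.7 mM or not at all. The groups were lung with acrylamide (arrays 28, 29 and 30), lung without treatment (4, 5 and 6), liver with acrylamide (27, 29 and 30) and liver without treatment (1, 3 and 4), with 3 arrays in each. All groups share the strain and the sex. The sources used here give no age, route or duration of exposure. Nor do they tie each array to its own animal, so a p-value here reflects the scatter of these arrays, part of which may be technical.

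Hemoglobin carries oxygen in red cells as a tetramer of alpha-like and beta-like globin chains around heme. Adult alpha chains come from Hba-a1 and its near-identical neighbour Hba-a2, and adult beta chains come from the Hbb locus, where laboratory strains carry different haplotypes. Hbb-b1 and Hbb-b2 name the genes of the haplotype found in C3H mice, whereas Hbb-bs and Hbb-bt name those of C57BL/6 mice, and a B6C3F1 mouse is a cross of these strains. Hbb-bh1 is an embryonic beta-like gene of the yolk sac, and Hbb-bh2 is a further beta-like gene of the same locus. Ahsp is a chaperone that binds free alpha globin, Alas2 is the erythroid form of the first enzyme of heme synthesis, and Slc4a1 is band 3, the anion exchanger of the red cell membrane. In adult mice red cells are made in marrow and spleen, and young circulating red cells still hold globin messenger RNA. In whole tissue, fewer blood cells and less RNA per blood cell cannot be told apart.

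A gene's value is given here as its scaled intensity, the Cy3 intensity of the spot as a multiple of the 75th percentile of intensity on that array, and differences are given in log2 units with their SE, n = 3 arrays per group. That percentile was 839.4 to 1376 on lung arrays and 294.5 to 621.5 on liver arrays. The background limit of an array was the 95th percentile over its 308 negative control spots, an intensity of 2.35 to 3.24 on lung arrays and 2.50 to 16.8 on liver arrays, the highest being liver acrylamide 30. The tissue entry of all 12 arrays reads liver, whereas the titles of 6 read lung. The summed scaled intensity of 11 lung epithelial genes was 1753 to 2388 on the arrays titled lung and 210.5 to 262.4 on those titled liver, and that of 10 hepatocyte genes was 15.7 to 34.98 and 3212 to 5108, so the titles were used. The titles begin with a number code, read here as slide and slide row, though they do not use these words. By that reading each tissue was on a slide of its own, and the effects of slide and tissue cannot be told apart.

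Hba-a1 and Slc4a1 lie on chromosome 11, the Hbb genes on chromosome 7 and Alas2 on chromosome X. The RefSeq promoter table of build GRCm38.p6 held 3 of the 8 genes, Hba-a1, Hbb-bh2 and Alas2, and also Hbb-bt. Their windows, from 250 bases before to 50 bases after the gene start and read in the direction of the gene, are shown because these genes moved together or apart between arrays. Capitals mark every match, on either strand, to CCNCNCCC (a CACCC-type box, the kind of site bound by KLF1), AGATAA (the kind of site bound by GATA1), CCAAT and TATAAA. Matches that overlap form 1 run of capitals.
Hba-a1, chr11:32283422-32283721, plus strand: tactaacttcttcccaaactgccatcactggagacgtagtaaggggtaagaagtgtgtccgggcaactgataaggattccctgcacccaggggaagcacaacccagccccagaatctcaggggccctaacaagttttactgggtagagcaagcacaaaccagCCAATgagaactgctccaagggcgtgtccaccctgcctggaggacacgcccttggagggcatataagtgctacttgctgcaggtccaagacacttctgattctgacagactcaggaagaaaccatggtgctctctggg
Hbb-bh2, chr7:103840472-103840771, minus strand: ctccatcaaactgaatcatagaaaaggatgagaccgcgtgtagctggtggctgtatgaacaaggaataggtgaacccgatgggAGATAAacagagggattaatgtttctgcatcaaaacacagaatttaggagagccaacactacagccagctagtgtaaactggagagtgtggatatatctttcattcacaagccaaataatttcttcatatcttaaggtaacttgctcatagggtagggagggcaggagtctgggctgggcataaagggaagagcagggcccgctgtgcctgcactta
Alas2, chrX:150547167-150547466, plus strand: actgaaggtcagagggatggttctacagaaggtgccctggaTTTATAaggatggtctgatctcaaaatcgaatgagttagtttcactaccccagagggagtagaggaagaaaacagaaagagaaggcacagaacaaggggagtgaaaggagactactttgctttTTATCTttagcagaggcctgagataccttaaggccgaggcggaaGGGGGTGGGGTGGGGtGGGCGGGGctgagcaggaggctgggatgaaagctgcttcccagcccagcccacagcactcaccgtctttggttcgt
Hbb-bt, chr7:103813874-103814173, minus strand: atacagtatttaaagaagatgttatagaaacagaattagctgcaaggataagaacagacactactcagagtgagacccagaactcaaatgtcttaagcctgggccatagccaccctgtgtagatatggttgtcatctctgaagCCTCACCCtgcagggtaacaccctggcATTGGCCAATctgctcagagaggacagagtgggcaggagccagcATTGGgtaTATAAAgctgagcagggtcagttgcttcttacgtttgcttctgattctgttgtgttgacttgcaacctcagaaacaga
The Alas2 window held 4 matches to the CACCC-type letters, 1 to the GATA letters, 86 bases before the start, and 1 to TATAAA. The Hbb-bt window held 1 CACCC-type match, 3 CCAAT matches and 1 TATAAA match, 28 bases before the start. The Hba-a1 window held CCAAT alone of these letters, 88 bases before the start, and the Hbb-bh2 window held AGATAA alone, 167 bases before the start. Among 32851 promoter windows of this length, 49.5% held the CACCC-type letters, 11.2% AGATAA, 37.4% CCAAT and 13.6% TATAAA. A match describes the letters of the window and is not evidence of a bound site.

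**Figure D1:**
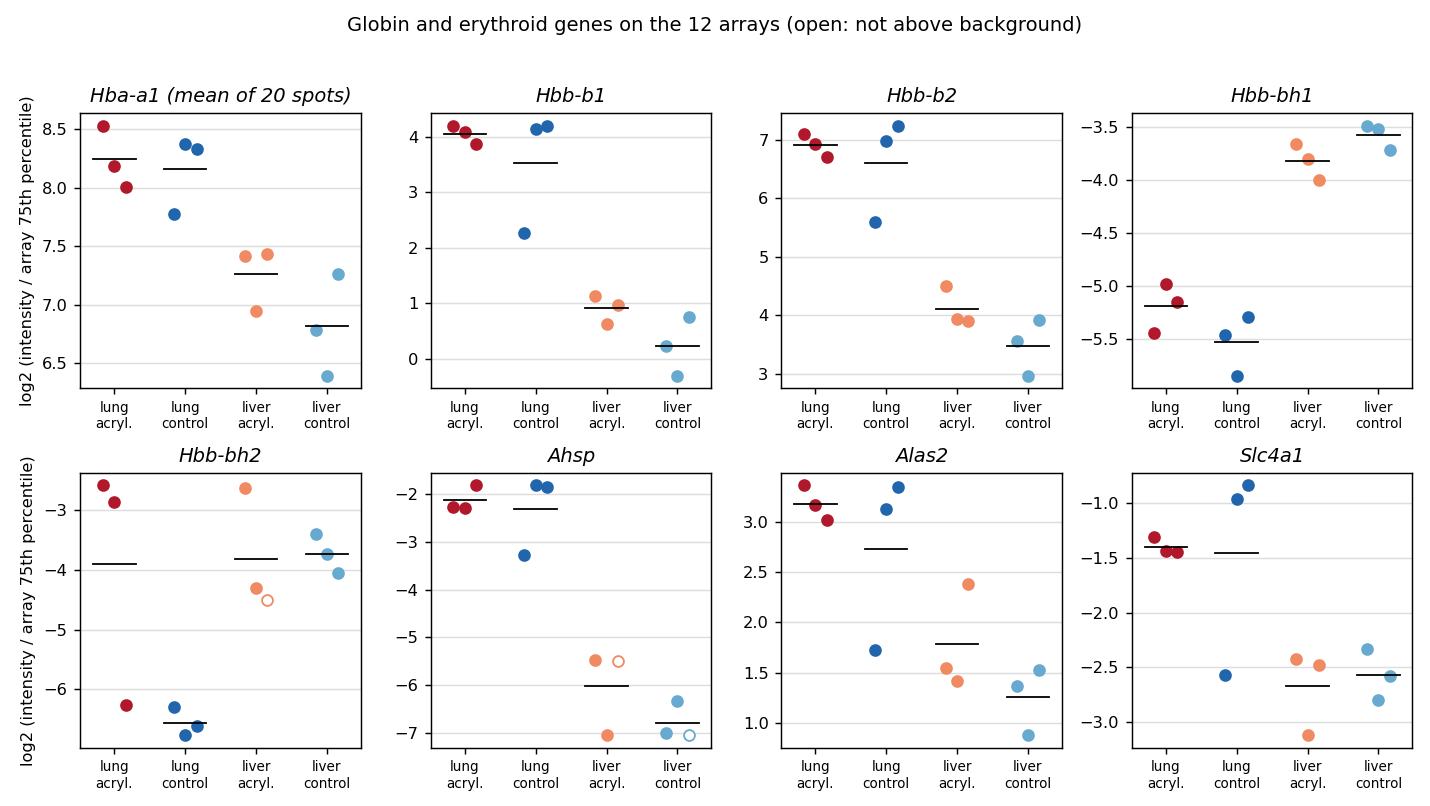
Log2 scaled intensity of the 8 genes on each of the 12 arrays, by tissue and treatment, with the group mean as a line and open symbols for spots not above background. Lung control 4 sits at 4.81 for Hbb-b1 on the unlogged scale, apart from the other lung arrays at 14.6 to 18.4.

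The adult beta globins Hbb-b1 and Hbb-b2, Ahsp and Alas2 were called higher in lung than in liver with and without acrylamide, and the embryonic beta-like gene Hbb-bh1 was called lower in lung in both. Slc4a1 passed the test with acrylamide and missed it without. Hbb-b1 had scaled intensities of 18.4, 17.0 and 14.6 on lung acrylamide arrays 28, 29 and 30, and of 4.81, 17.7 and 18.3 on lung control arrays 4, 5 and 6. The liver acrylamide arrays 27, 29 and 30 gave 2.21, 1.54 and 1.97, and the liver control arrays 1, 3 and 4 gave 1.18, 0.812 and 1.68. All lung arrays lay above all liver arrays, while acrylamide and control overlapped within each tissue. Hbb-b2 had 136, 122 and 105 on lung acrylamide arrays and 47.9, 126 and 151 on lung control arrays. Its liver values were 22.4, 15.3 and 15.0 with acrylamide and 11.7, 7.80 and 15.1 without. The order of the arrays was again lung above liver, with lung control 4 the lowest of the lung arrays. Between untreated tissues Hbb-b1 was 3.31 ± 0.57 log2 units higher in lung (SE, adjusted p = 0.00195), a fold of 9.91, and Hbb-b2 was 3.12 ± 0.48 higher (adjusted p = 0.00111). Between acrylamide tissues the differences were 3.13 ± 0.18 and 2.80 ± 0.21 (adjusted p = 2.91e-05 and 8.17e-05).

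Ahsp, the alpha globin chaperone, had the widest gap between the tissues among the 8 genes. Its values were 0.207, 0.204 and 0.284 on lung acrylamide arrays and 0.103, 0.284 and 0.276 on lung control arrays. In liver it was close to background, at 0.0223, 0.0075 and 0.0222 with acrylamide and 0.0078, 0.0124 and 0.0076 without, and it did not exceed background on liver acrylamide 30 and liver control 4. The lung was 4.48 ± 0.44 log2 units above the liver without treatment (SE, adjusted p = 0.000134) and 3.88 ± 0.47 with acrylamide (adjusted p = 0.000625).

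Alas2 gave 10.3, 8.97 and 8.09 on lung acrylamide arrays and 3.31, 8.74 and 10.2 on lung control arrays. In liver its values were 2.92, 2.67 and 5.20 with acrylamide and 2.58, 1.84 and 2.87 without, so lung control 4 lay below liver acrylamide 30. It was higher in lung by 1.48 ± 0.45 log2 units without treatment (SE, adjusted p = 0.0222) and by 1.401 ± 0.28 with acrylamide (adjusted p = 0.00552). The first of these calls was lost without liver control 3, lung control 5 or lung control 6 (adjusted p = 0.0732, 0.0700 and 0.0636). Slc4a1 gave 0.403, 0.369 and 0.368 on lung acrylamide arrays and 0.168, 0.513 and 0.559 on lung control arrays, against 0.187, 0.115 and 0.179 in acrylamide liver and 0.199, 0.144 and 0.167 in untreated liver. With acrylamide it was 1.28 ± 0.21 log2 units higher in lung (SE, adjusted p = 0.00247). Without treatment the difference was 1.11 ± 0.47 (adjusted p = 0.0695), and without lung control 4 it was 1.67 ± 0.19 (adjusted p = 0.000762).

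The embryonic gene Hbb-bh1 and the beta-like gene Hbb-bh2 ran the other way in untreated tissue, by the spots used in the tests. Hbb-bh1 had 0.0230, 0.0316 and 0.0282 on lung acrylamide arrays and 0.0227, 0.0174 and 0.0256 on lung control arrays, against 0.0790, 0.0716 and 0.0625 in acrylamide liver and 0.0889, 0.0871 and 0.0758 in untreated liver. No lung array reached a liver array in scaled intensity. Before scaling the spot was dim and its tissues overlapped, at intensities of 18.2 to 38.8 on lung arrays and 18.4 to 49.0 on liver arrays. The differences were -1.95 ± 0.18 log2 units without treatment (SE, adjusted p = 0.000106) and -1.37 ± 0.17 with acrylamide (adjusted p = 0.000641). A second Hbb-bh1 spot, named in the files by a cDNA accession, overlapped between the tissues, at 0.0102 to 0.0292 on lung arrays and 0.0191 to 0.0350 on liver arrays. Hbb-bh2 had 0.0128, 0.0092 and 0.0102 on lung control arrays and 0.0945, 0.0749 and 0.0606 on liver control arrays, a difference of -2.83 ± 0.22 (SE, adjusted p = 4.3e-05). With acrylamide its arrays overlapped between the tissues, and the difference was -0.10 ± 1.12 (adjusted p = 0.944). The liver acrylamide arrays 27, 29 and 30 had 0.163, 0.0507 and 0.0441 for Hbb-bh2, the last not above background.

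The count of calls has to be read against the whole array, on which the tissues differed for most genes. Between untreated tissues 6 of the 8 genes passed, 4 higher and 2 lower in lung, where 74.4% of 22441 genes passed, 32.0% higher and 42.4% lower. Between acrylamide tissues 6 of 8 passed, 5 higher and 1 lower, where 72.8% of 22115 genes passed, 31.3% higher and 41.5% lower. The arrays of the 2 tissues did not overlap for 6 of 8 genes in each comparison, where 78.8% and 78.5% of all genes did not. The count of calls was therefore near that of all genes. The median difference of the 8 genes was 1.296 log2 units without treatment, where that of all genes was -0.28, and 1.34 with acrylamide, where that of all genes was -0.25. Quantile scaling moved the median of all genes to 0.01 and 0.07, and the directions of Hbb-b1, Hbb-b2, Ahsp, Alas2, Slc4a1 and Hbb-bh1 held under it and under median scaling in both comparisons. That of Hbb-bh2 with acrylamide turned under both scalings, to 0.12 and 0.08.

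The alpha globin gene Hba-a1 was represented by 20 spots that did not behave alike. They fell into a dimmer and a brighter set of 10 on liver arrays, divided at the largest gap in their liver means after their values had been seen, so the comparison of the sets is a description with no test. The first set had mean scaled intensities of 433, 334 and 299 on lung acrylamide arrays and 181, 377 and 376 on lung control arrays. In liver the same set had 98.9, 69.7 and 84.4 with acrylamide and 54.7, 37.2 and 73.8 without. These spots thus had the pattern of the beta globin spots, with lung above liver and lung control 4 the lowest lung array. The second set had 316, 254 and 223 on lung acrylamide arrays and 265, 292 and 276 on lung control arrays. In liver it had 294, 217 and 353 with acrylamide and 223, 189.6 and 320.4 without, so its tissues overlapped and lung control 4 lay within the other lung arrays. The lung minus liver difference was 2.47 log2 units in the first set and 0.22 in the second without treatment, and 2.07 and -0.11 with acrylamide.

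The 10 spots of Hba-a2, the neighbouring alpha globin gene, gave lung minus liver differences of 0.18 log2 units without treatment and -0.13 with acrylamide. Within an array the spots of a set agreed closely, with a median SD over spots of 0.08 log2 units in the first set, 0.10 in the second and 0.08 for Hba-a2. The SD between the 6 arrays of a tissue was 0.44 in lung and 0.50 in liver for the first set, and 0.17 and 0.36 for the second. The spots reached an intensity of 543217 on lung control 6. Saturation flags and probe sequences were not used here, and whether a probe reads Hba-a1, Hba-a2 or both was not tested. The spot with the highest mean over the arrays of the fit stood for Hba-a1 in the tests, and it gave 0.33 ± 0.20 log2 units between untreated tissues (SE, adjusted p = 0.172) and 0.02 ± 0.22 between acrylamide tissues (adjusted p = 0.929). With the mean of all 20 spots the values were 1.35 ± 0.28 (adjusted p = 0.00443) and 0.98 ± 0.21 (adjusted p = 0.00717), so the call for Hba-a1 depends on the spots used. The spot was chosen again in each setting, so another of the 20 spots could stand for the gene there. So chosen, Hba-a1 also passed between untreated tissues without liver control 4 (0.51, adjusted p = 0.0368) and with median scaling (0.53). It passed in both comparisons with quantile scaling (1.42 and 0.99).

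**Figure D2:**
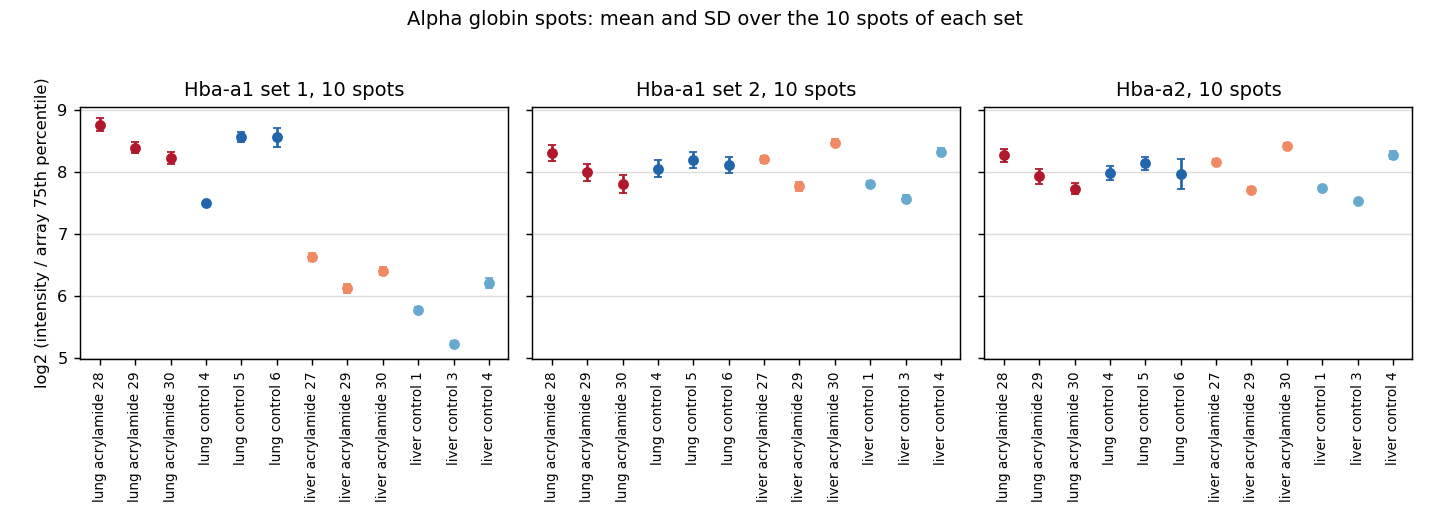
Mean log2 scaled intensity of the 10 spots of each alpha globin set on the 12 arrays, with bars for the SD over the spots. The first Hba-a1 set differs between the tissues by 2.47 log2 units without treatment, while the second set and Hba-a2 lie level, at 0.22 and 0.18.

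In lung, no globin or erythroid gene passed the test of acrylamide against control. limma called 0 of the 8 genes and 0 of 22252 genes, a percentage of 0, while 1 of the 8 and 1102 genes (4.95%) had an unadjusted p under 0.05. For the spots used in the test, all 8 differences were above 0, with a median of 0.33 log2 units, where that of all genes was -0.01. The mean of the first Hba-a1 spot set differed by 0.25 and that of the second by -0.09. A second Hbb-bh1 spot overlapped between the groups, at 0.0102 to 0.0202 with acrylamide and 0.0129 to 0.0292 without. Hbb-b1 averaged 16.6 ± 1.91 with acrylamide and 13.6 ± 7.64 without (SD, n = 3 each), a difference of 0.51 ± 0.53 log2 units (SE, adjusted p = 0.998). The differences of Alas2, Hbb-bh1, Hbb-b2, Hba-a1, Ahsp and Slc4a1 were 0.45, 0.34, 0.31, 0.22, 0.19 and 0.06. The Hba-a1 spot used in lung was of the first set, whereas that used in liver was of the second. The larger spread of the control group came from lung control 4. Without that array the median of the 8 genes was -0.12, and Hbb-b1, Hbb-b2, Hba-a1, Ahsp, Alas2 and Slc4a1 had differences below 0. Within slide row 1, which holds acrylamide 28 and 30 and control 5, the median was -0.067, and within slide row 2, which holds acrylamide 29 and controls 4 and 6, it was 0.45.

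Hbb-bh2 was the only one of the 8 genes whose lung groups did not overlap, where 10.9% of all genes did not. It had 0.167, 0.138 and 0.0130 on lung acrylamide arrays 28, 29 and 30, against 0.0128, 0.0092 and 0.0102 on lung control arrays 4, 5 and 6. Acrylamide 28 and 29 stood far above the other lung arrays, and acrylamide 30 lay just above the highest control. The difference was 2.65 ± 0.98 log2 units (SE, unadjusted p = 0.0362, adjusted p = 0.998), and it was 1.99 to 3.83 with each array left out in turn. The embryonic gene Hbb-y, which was named after its values were seen, had 0.0459 on lung acrylamide 28 and at most 0.0026 on the other lung arrays, and it was above background on 3 of the 6 arrays. Its difference in lung was 1.303 ± 1.24 (SE, adjusted p = 0.998).

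In liver, the adult globins, Ahsp and Alas2 had higher means with acrylamide than without, and none passed the test. Ahsp was close to background, and acrylamide 30 and control 4 were not above it. Its value on acrylamide 29, 0.0075, lay below the controls, at 0.0076 to 0.0124. limma called 0 of the 8 genes and 0 of 21169 genes, a percentage of 0, and 0 of the 8 and 1278 genes (6.04%) had an unadjusted p under 0.05. The groups overlapped for all 8 genes, where 12.2% of all genes did not overlap. The median difference was 0.41 log2 units, where that of all genes was -0.02, with 5 genes above 0 and 3 below. Hbb-b2 averaged 17.6 ± 4.23 with acrylamide and 11.5 ± 3.66 without (SD, n = 3 each), a difference of 0.63 ± 0.30 log2 units (SE, adjusted p = 0.784). Alas2 averaged 3.60 ± 1.39 and 2.43 ± 0.534 in those groups (SD, n = 3 each), a difference of 0.52 ± 0.31 (SE, adjusted p = 0.784). Hba-a1, here by a spot of the second set, differed by 0.30 ± 0.27, and the mean of its first spot set by 0.65 and of its second by 0.25. Slc4a1, Hbb-bh2 and Hbb-bh1 were at -0.10, -0.08 and -0.24. Acrylamide 27 was the highest liver array for 4 of the 8 genes, where it was highest for 14.6% of all genes, and control 3 was the lowest for 4, where it was lowest for 18.8%. Macrophage and Kupffer cell genes were highest on acrylamide 27 for 9 of 10 and lowest on control 3 for 10 of 10.

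Several but not all of the 11 listed genes of lung epithelium stood above the liver controls on 2 of the liver acrylamide arrays. The values of 3 of them are given beside those of beta globin, which was itself higher in lung. Abca3 went the other way, at 43.5 and 46.5 on acrylamide 27 and 29 against 47.9 to 58.5 on liver controls. Napsa on acrylamide 27 and Sftpd on acrylamide 29 lay within the liver controls. On liver acrylamide 27, Sftpc, a surfactant gene, stood at 1.64% of its lung mean, Scgb1a1, a club cell secretoglobin, at 1.74% and Cbr2, a carbonyl reductase, at 0.676%. On acrylamide 29 the shares were 0.169%, 0.837% and 0.323%. On acrylamide 30, Sftpc and Cbr2 were not above background, and Scgb1a1 stood at 0.0226%, below the liver controls at 0.0256% to 0.0493%. Hbb-b1 stood 0.985 above the mean of liver controls in scaled intensity on acrylamide 27, and the 3 shares of its lung mean come to 0.102 to 0.264. On acrylamide 29 it stood 0.321 above, and the shares come to 0.0255 to 0.127. On acrylamide 30 it stood 0.749 above. For Hbb-b2 on acrylamide 27, the excess was 10.9, and the shares of its lung mean come to 0.774 to 1.99. These shares rest on 3 markers that differ among themselves, and the part of lung transcripts in the liver globin values was not tested. Without acrylamide 27 and 29 the median of the 8 genes was 0.43, with Alas2 at 1.12 ± 0.32 (SE, adjusted p = 0.319), where the lone acrylamide array was assumed to vary like the controls. Within slide row 1 the median was 0.77, and within row 2, which holds acrylamide 29 and control 4, it was -0.12.

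**Figure D3:**
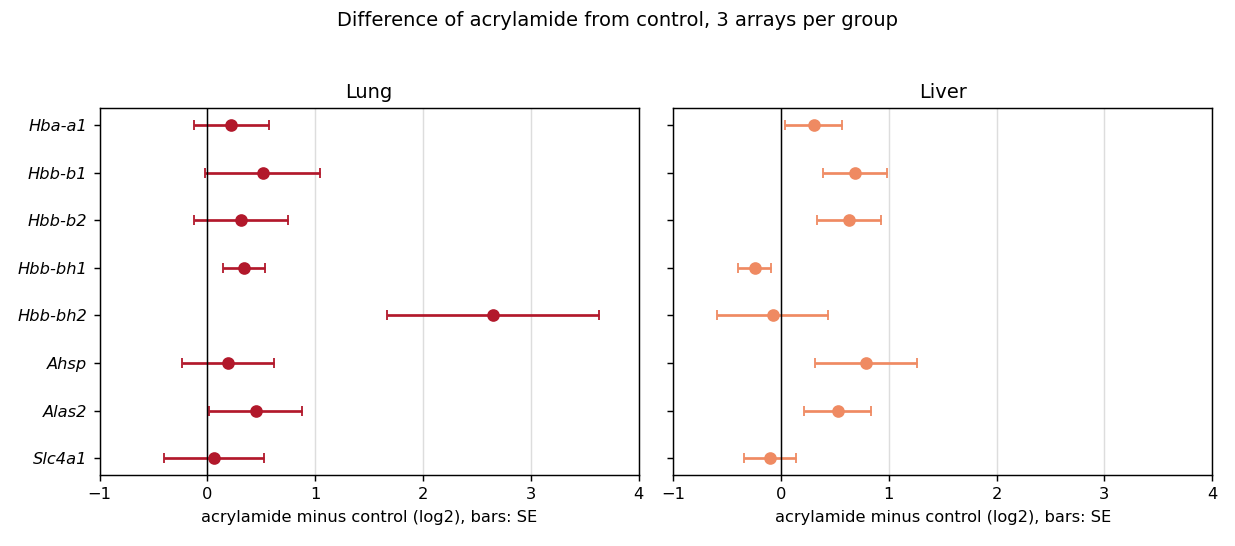
Acrylamide minus control difference in log2 units for the 8 genes in lung and in liver, as points with SE bars, 3 arrays per group. Hbb-bh2 in lung stands apart at 2.65 with the widest bar, and the other lung values lie between 0.06 and 0.51. Hba-a1 is shown by a spot of the first set in lung and by a spot of the second set in liver.

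The acrylamide effect was also compared between the tissues. limma called 0 of the 8 genes and 0 of 23300 genes, a percentage of 0, and 2 of the 8 and 1035 genes (4.44%) had an unadjusted p under 0.05. These were Hbb-bh2, with a lung minus liver effect of 2.73 ± 1.22 log2 units (SE, adjusted p = 0.994), and Hbb-bh1, with 0.58 ± 0.25 (adjusted p = 0.994). The adult globins and Ahsp, Alas2 and Slc4a1 had effects of -0.60 to 0.16.

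The array that set the sign of the lung median was low across several kinds of blood gene. Lung control 4 was the lowest of the 6 lung arrays for 6 of the 8 genes, where it was lowest for 28.8% of all genes tested in lung. The geometric mean of the other 5 lung arrays exceeded it 3.56-fold for Hbb-b1, 2.79-fold for Alas2, 2.65-fold for Hbb-b2, 2.59-fold for Slc4a1 and 2.42-fold for Ahsp. Those arrays exceeded it 2.09-fold for the Hba-a1 spot used in lung, of the first set, and 1.02-fold for the mean of the second set. Of genes outside the 8, picked after their values were seen, Hbq1a, a theta globin, stood 3.20-fold above it and Trim10 3.03-fold. Hbb-bt was 1.94-fold above it, and Hba-a2 1.005-fold.

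Other blood lineages moved with the globins on that array. Platelet and megakaryocyte genes were lowest there for 10 of 10, and highest on lung control 5 for 10 of 10. Their summed scaled intensity was 13.7 to 15.4 on lung acrylamide arrays and 7.95 to 27.9 on lung control arrays. B and T cell genes were lowest on lung control 4 for 7 of 8, and highest on lung control 6 for 7 of 8, with sums of 9.96 to 12.2 with acrylamide and 7.47 to 16.8 without. Endothelial genes, by contrast, were lowest on lung control 4 for 1 of 7. Neutrophil genes were lowest there for 4 of 11 and were mixed. The geometric mean of the other lung arrays was 2.25-fold higher for S100a9 and 2.18-fold higher for Retnlg, whereas Ltf had 18.4 on lung control 4 and at most 5.14 on the others. The part of blood content in the lung differences was not tested.

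**Figure D4:**
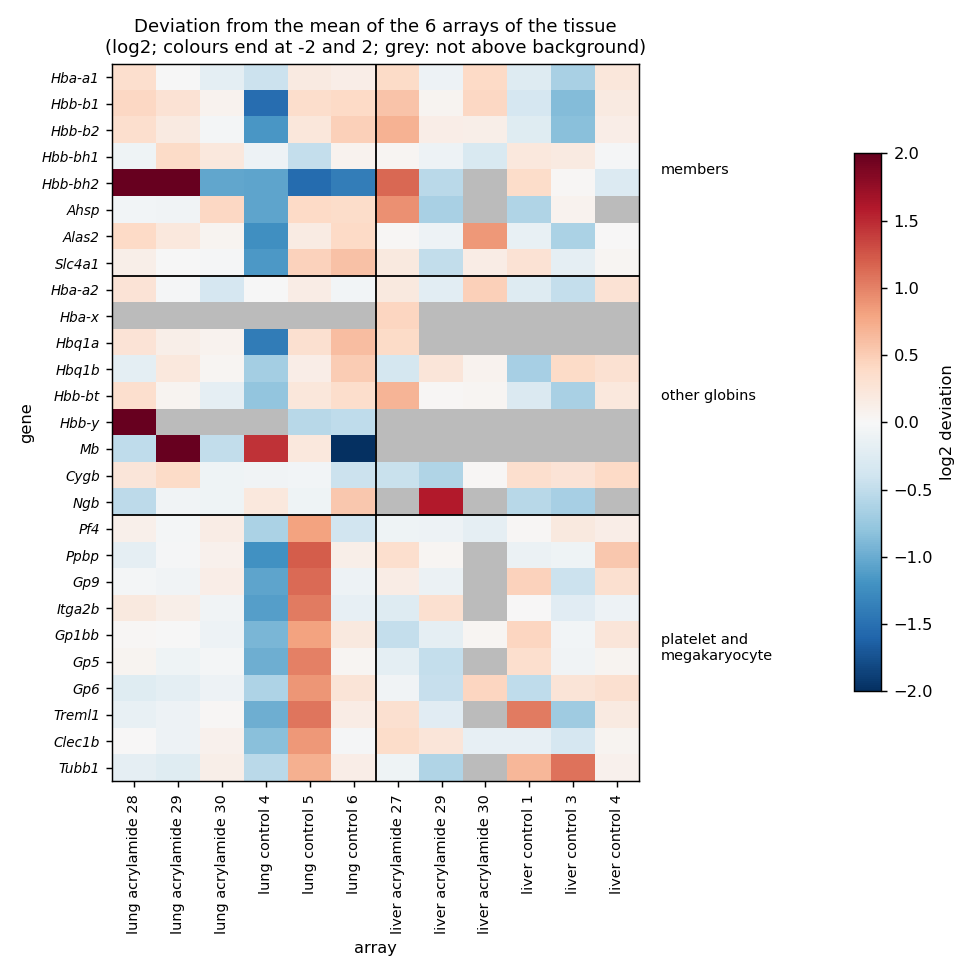
Log2 deviation of each gene from the mean of the 6 arrays of its tissue, for the 8 genes, other globins and platelet genes, with arrays across and grey where a spot was not above background. Lung control 4 is low for 6 of the 8 genes and for 10 of 10 platelet genes.

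Across all 12 arrays, genes whose deviations from their group means ran closely with the mean of Hba-a1, Hbb-b1 and Hbb-b2 were Mkrn1 (Pearson's r = 0.962), Hbb-bt (0.961), Gm5779 (0.958) and Zdhhc22 (0.957). These were among the top 5 of 19426 genes over 12 points that share the array and its scaling. Over the 6 liver arrays alone the top 5 were Zpbp2, Mib2, Purg, Enkd1 and Klhl24, and over the 6 lung arrays alone Rint1, Mrm2, Tm2d3, Gcgr and Otop1, so neither short list shared a gene with the other. With 6 points and this many genes, high values of r are reached easily, and they are given as a description.

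The other genes of the red cell were described by lists. Of the other globins, 9 of 12 listed genes were on the array, 8 were tested in lung and 5 in liver, and 0 were called for acrylamide in either tissue. In lung, with 6 above 0 and 2 below, Hbb-bt differed by 0.14 ± 0.33 and Mb, the myoglobin of muscle, by 0.68 ± 1.22 log2 units (SE, adjusted p = 0.998 for both). In liver Hbb-bt differed by 0.49 ± 0.29, Hba-a2 by 0.31 ± 0.28, Ngb, neuroglobin, by 1.07 ± 0.71 and Cygb, the cytoglobin of stellate cells, by -0.68 ± 0.19 (SE, adjusted p = 0.784 to 0.841). Ngb was above background on acrylamide 29 alone of the liver acrylamide arrays, and it was not above background on liver control 4. Hbb-bt had 229, 189.7 and 161 on lung acrylamide arrays and 105, 213 and 233 on lung control arrays, against 46.1, 29.3 and 29.8 in acrylamide liver and 23.6, 18.4 and 33.6 in untreated liver. It repeated the pattern of Hbb-b1 and Hbb-b2, with 2.83 ± 0.37 between untreated tissues (SE, adjusted p = 0.000517). Of 7 tested between untreated tissues, 5 were called higher and 1 lower in lung, where 32.0% of all genes were called higher and 42.4% lower. Mb was at least 384-fold higher in untreated lung (adjusted p = 0.000242), since it was above background on no liver array.

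Genes of the red cell membrane and cytosol did not share 1 direction. Of 15 membrane genes tested in lung, 7 were above 0 and 8 below with acrylamide, and of 12 tested in liver, 6 and 6, with 0 called in either tissue. Epb41, protein 4.1, differed by -0.06 ± 0.18 in lung and -0.04 ± 0.15 in liver, and Dmtn, dematin, by -0.33 ± 0.11 and 0.76 ± 0.38 (SE, adjusted p = 0.784 to 0.998). Between untreated tissues 4 of 15 were called higher and 6 lower in lung, no larger a share than the 74.4% called of all genes. Tmod1, tropomodulin, was at least 196-fold higher in lung (adjusted p = 6.99e-07) and Ank1, ankyrin, 3.56 ± 0.77 log2 units higher (adjusted p = 0.00531), while Dmtn was at -2.52 ± 0.14 (SE, adjusted p = 1.09e-05). Of the cytosol genes, 0 of 11 tested in lung and 0 of 12 in liver were called for acrylamide. Hemgn, hemogen, differed by -0.34 ± 0.08 in lung and 0.59 ± 0.29 in liver (SE, adjusted p = 0.959 and 0.784). Hemgn had 18.4 to 24.4 on lung arrays and 98.1 to 203 on liver arrays, the reverse of the adult globins.

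Transcription factors of the red cell line were mixed in the same way. None of 10 tested in lung or of 9 in liver was called for acrylamide, with medians of 0.04 and 0.03 log2 units. Klf1, the activator of adult beta globin, differed by 0.35 ± 0.17 in lung and 0.39 ± 0.13 in liver (SE, adjusted p = 0.998 and 0.784). These values came from different spots. The Klf1 spot used in lung had 0.280, 0.283 and 0.489 on liver acrylamide arrays 27, 29 and 30. On liver control arrays 1, 3 and 4 that spot had 0.449, 0.339 and 0.337, so its liver groups overlapped and showed no common rise. Between untreated tissues 5 of 10 were called higher and 4 lower in lung, where 32.0% of all genes were called higher and 42.4% lower. Gata1, the master factor of the red cell line, was at least 9.57-fold higher in lung (adjusted p = 0.000312), since it was above background on no liver array, whereas Zfpm1, its cofactor, was at -2.20 ± 0.23 (SE, adjusted p = 0.000172). Myb, a factor of progenitor cells, was 8.48 ± 0.35 log2 units higher in lung (adjusted p = 3.31e-06).

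Most heme synthesis genes other than Alas2 were lower in lung than in liver. Of 14 genes, 0 were called for acrylamide in either tissue, with medians of -0.01 in lung and 0.00 in liver. Between untreated tissues 12 of 14 were called lower in lung and 0 higher, where 42.4% of all genes were called lower and 32.0% higher, and the median was -1.94, where that of all genes was -0.28. The exception in direction was Slc25a37, the mitochondrial iron importer mitoferrin, chosen after its values were seen. It had 4.52, 4.22 and 4.24 on lung acrylamide arrays against 2.91, 2.84 and 2.71 in acrylamide liver, and was 0.62 ± 0.10 log2 units higher in lung (SE, adjusted p = 0.00191). Without treatment the difference was 0.36 ± 0.20 (adjusted p = 0.147). Cpox, coproporphyrinogen oxidase, was at -3.70 ± 0.18 and Abcb6, a porphyrin transporter, at -3.37 ± 0.16 (SE, adjusted p = 6.64e-06 and 5.46e-06), against the 1.48 of Alas2. Alas1, the form of the first enzyme used outside red cells, had 60.6, 58.3 and 68.0 on lung acrylamide arrays and 65.3, 61.6 and 33.4 on lung control arrays, against 73.5, 142 and 106 in acrylamide liver and 95.6, 56.7 and 67.3 in untreated liver. Its groups overlapped in both tissues, with acrylamide minus control differences of 0.28 ± 0.27 in lung and 0.53 ± 0.31 in liver (SE, adjusted p = 0.998 and 0.784).

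Genes that control red cell production or clear hemoglobin showed no call for acrylamide. Of 6 genes of erythropoietin and iron uptake, 0 passed in either tissue. Epor, the erythropoietin receptor, differed by 0.04 ± 0.13 in lung and 0.16 ± 0.17 in liver, and Epo, the hormone, by -0.46 ± 0.09 and 0.55 ± 0.43 (SE, adjusted p = 0.821 to 0.998). The Epo spot was close to background, with an intensity of at most 6.74 on any array. It was not above background on liver acrylamide 30, its highest liver array in scaled intensity, or on liver control 1. Of 7 clearance genes, 0 passed. Hp, haptoglobin, differed by -0.07 ± 0.15 in lung and -0.18 ± 0.23 in liver, and Cd163, the receptor of the haptoglobin complex on macrophages, by 0.47 ± 0.16 in lung (SE, adjusted p = 0.870 to 0.998). Macrophage and Kupffer cell genes were above 0 for 10 of 10 in liver, with 0 called, and their sum was 83.1 to 92.3 with acrylamide and 56.7 to 77.6 without. Their part in the liver values of Hbb-b1 and Hbb-b2, also highest on acrylamide 27 and lowest on control 3, was not tested. B and T cell genes were below 0 for 7 of 8 and platelet genes for 8 of 10 in liver, also with 0 called.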

How the data were processed

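The deposited files hold 1 linear Cy3 intensity per spot for 62976 spots on each of 12 Agilent 1-colour arrays, for which the submitters' processing notes name Agilent Feature Extraction 10.7. The sources used here do not say whether background was subtracted. The authors' series matrix holds the same intensity values times 1 factor per array, with the 75th percentile at 1000, and was an alternative. After 1319 control spots were left out, each array's log2 values were set relative to their 75th percentile. No pseudocount was used. Symbols came through Entrez numbers for 38054 spots and a RefSeq table of GRCm38.p6, used for names. A spot was tested if it passed the background limit on 3 or more arrays of the fit, and the spot with the highest mean stood for each gene.

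limma 3.58.1 (lmFit and eBayes, R 4.3.3) was fitted over all genes within each tissue, between tissues at each treatment, and over 12 arrays for the difference of effects. Calls needed a Benjamini-Hochberg adjusted p under 0.05. The fits were tested on simulated data. Precision is limited by the number of arrays. The 8 genes and the 14 lists were chosen with earlier results of these data known. From each list, the rule names the 2 genes with the highest mean and the 2 with the largest difference, and some genes so named are not reported here. A fold against a group with no spot above background is a lower bound, computed from the lowest signal above background on each of its arrays. Same-numbered lung and liver arrays did not deviate together (r = -0.02, -0.25 and -0.06 for numbers 29, 30 and 4), so numbers were not used as pairs. These correlations do not exclude a shared animal, and the tests between tissues treat the arrays as independent. Alternatives were other scalings, filters, spots, weights, slide rows and each array left out.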

Additional observations from a re-analysis of the deposited data

Results flagged for a closer look

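Hbb-bh1, the embryonic beta-like globin gene, was singled out because all 3 acrylamide arrays lay above the control mean in lung and all 3 lay below it in liver, so the lung effect minus the liver effect was 0.58 log2 units. The test of that difference did not pass (adjusted p = 0.994). The second Hbb-bh1 spot overlapped between the lung groups, at 0.0102 to 0.0202 with acrylamide and 0.0129 to 0.0292 without.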

How the results depend on the processing

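Few settings changed a count of calls for acrylamide. The liver count of 0 became 2 in 1 fit of 12 arrays and 48 without acrylamide 27 and 29, and ran from 0 to 1 with each array left out, the 1 being without acrylamide 27. The count for the difference of effects, 0, became 139 with arrayWeights and 1158 without liver acrylamide 27 and 29, and ran from 0 to 136 with each array left out, the 136 being without liver acrylamide 30. The lung count stayed at 0 in all settings run. The median difference of the 8 genes in liver, 0.41, became 0.085 with arrayWeights, 0.77 within slide row 1 and -0.12 within row 2, and ran from 0.24 to 0.60 with each array left out. That in lung, 0.33, became 0.15 with arrayWeights and -0.067 within slide row 1, and ran from -0.12 to 0.55, the -0.12 being without control 4. The causes were not tested, beyond fewer arrays in the settings that leave arrays out. Of the values of single genes between untreated tissues, 11 gained a call and 3 lost one, and between acrylamide tissues 3 gained one. A replicate block on the numbers in the titles had a correlation of -0.18. It gave 16875 calls between untreated tissues, 17041 between acrylamide tissues and 0 for the difference of effects. Whether arrays with the same number share an animal is not known. Within a tissue no paired analysis was possible because acrylamide and control share no numbers. The settings that leave out acrylamide 27 and 29 and the spot sets of Hba-a1 were chosen after seeing the data. Spots near or below background limit Ahsp, Ngb, Epo and Hbb-bh2 in liver and Hbb-y and Epo in lung. Hbb-bh2 was above background but dim on most lung arrays, and Hbb-bh1 was dim in both tissues.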

Other observations

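Among genes listed for red cells, Ank1, the red cell ankyrin, did not follow the globins across lung arrays, as seen after the values were known. Its scaled intensity was 0.102, 0.211 and 0.116 on lung acrylamide arrays 28, 29 and 30, and 0.267, 0.145 and 0.0480 on lung control arrays 4, 5 and 6. Lung control 4, the lowest lung array for the adult beta globins, was thus its highest. Mb, the myoglobin of muscle, had 2.27, 13.1 and 2.301 on those acrylamide arrays and 8.81, 3.75 and 0.501 on those control arrays, so both genes were high on acrylamide 29 and control 4 and lowest on control 6.

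Trim58, a ubiquitin ligase of late red cell precursors, was not above background on lung control 4 and had 0.0077 to 0.0115 on the other lung arrays.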
